A study of Populus yunnanensis with 9 samples.

Results

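Leaf transcripts of Cd-stressed Yunnan poplar (*Populus yunnanensis*) were compared between plants that also received nitrogen (Cd + N) and plants that received Cd alone (Cd). The comparison rests on 6 of the 9 sequenced libraries, 3 from each treatment, and covers all genes listed, 41335 in number, of which 34971 had a count in any library and 27378 had enough counts to be tested. The plants were rooted cuttings of wild trees, 4 months old by the sample labels, and the leaves were taken near the shoot apex after 60 d of treatment. In both groups cadmium chloride was added to the potting soil every 5 d, 40 mg Cd per kg of dry soil each time, up to a final 480 mg per kg. The Cd + N plants received ammonium bicarbonate with the cadmium chloride, 30 mg N per kg each time, up to a final 360 mg per kg. The mass of the salt per pot in the published methods corresponds to 30 mg N per kg. The mass in the labels corresponds to less nitrogen, so the nitrogen dose is uncertain. The remaining 3 libraries, from plants with neither addition (CK), served as the untreated level and contributed to the estimate of the spread. No group received nitrogen without Cd, so the effect of nitrogen was measured only in the presence of Cd, and ammonium cannot be told apart from the bicarbonate added with it. The paper reports more Cd in the leaves, and less in the soil, when nitrogen was added. Nitrogen itself thus cannot be told apart from the higher Cd content of the leaves. The tree, pot or number of plants behind each library was not given, so p-values measure the spread between these libraries, which may be technical in part.

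Cadmium is a non-essential metal that plants take up through carriers meant for nutrients such as zinc, iron and calcium. In leaves it is bound by thiol compounds, glutathione and the phytochelatins built from it, and moved into the vacuole. Cysteine, glutamate and glycine are the building blocks of these chelators, and all of them contain nitrogen. Ammonium is assimilated by glutamine synthetase and glutamate synthase, and its supply is known to change the expression of genes of transport, amino acid metabolism and growth in many plants. The deposited data list genes by identifier only and do not pair the identifiers with names, and no annotation was used here. The genes are therefore described by their levels and by the size of their differences, no function is given to any of them, and the label leaves was not checked against marker genes.

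Counts on genes were between 31952278 and 38236869 in the 6 libraries, and the 50 most abundant genes took from 9.29% of them in Cd replicate 2 to 15.1% in Cd replicate 1. One library of each group stood apart from its replicates. Distances between libraries were taken in log2 CPM (counts scaled to library size, here with TMM factors) as root mean square values over genes. Cd replicate 1 lay 1.19 and 1.06 from Cd replicates 2 and 3, which were 0.781 apart. It was nearer to the untreated libraries, at 0.710, 1.01 and 0.754 from CK replicates 1, 2 and 3. The reason for this was not tested. Cd + N replicate 2 lay 0.985 and 0.934 from Cd + N replicates 1 and 3, which were 0.562 apart. The 9 distances from a Cd library to a Cd + N library ran from 0.914 to 1.42, with a median of 1.02. The libraries of the 2 treatments were thus no farther apart, by this median, than Cd replicate 1 was from the other Cd libraries. The median SD of log2 CPM over genes was 0.305 within Cd and 0.303 within Cd + N.

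To find the genes whose level differed when nitrogen was added under Cd stress, Cd + N was compared with Cd with the quasi-likelihood test of edgeR, fitted to the 9 libraries together. No gene was past the adjusted threshold of 0.05, a called share of 0% of the 27378 genes tested, and the smallest adjusted p was 0.0928. At an unadjusted p under 0.05, there were 1865 genes higher (6.81%) and 1557 genes lower (5.69%) in the Cd + N libraries, 12.5% of the genes tested, where evenly spread p-values would give 1369 genes. All 3 Cd + N libraries lay above all 3 Cd libraries for 2647 genes (9.67%) and below them for 2180 genes (7.96%). DESeq2 called 684 genes higher (1.97% of 34772) and 385 lower (1.11%), and 96.3% of its calls, 1029 of 1069, were among the genes at an unadjusted p under 0.05 by edgeR. Limma-voom called 0 genes and limma on log2(FPKM + 1) 73, and edgeR itself called 22 genes without CK replicate 2. The call thus depended on the tool, the scale of the values and the libraries in the fit. The balance of the unadjusted counts also turned in 2 settings. Limma gave 1419 genes higher and 1435 lower on log2(FPKM + 1), and 1363 and 1419 on log2(FPKM + 0.1). The paper states that some WRKY, ZAT and HSF transcription factors were significantly higher in this transcriptome under Cd + N than under Cd alone. It does not name the test, and those genes could not be picked out here without names.

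The differences were small for most genes. The 25th and 75th percentiles of the log2 fold change were -0.29 and 0.23, and the median over all genes was -0.02. The 5th and 95th percentiles were -1.14 and 1.24, and the 1st and 99th were -2.49 and 3.15. The outer part of the distribution was therefore longer on the side of higher levels under Cd + N. The approximate standard error of a log2 fold change had a median of 0.278, and 80% of genes had one between 0.135 and 0.803.

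The plot of fold change against mean level shows all tested genes with the genes named here.

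**Figure D1:**
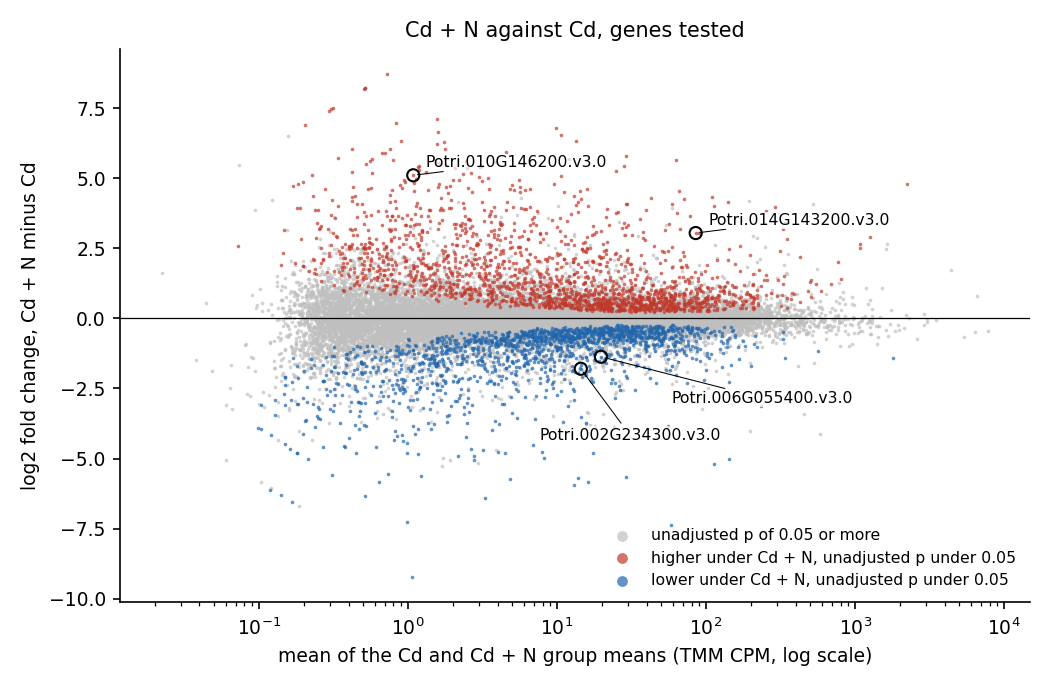
Log2 fold change of Cd + N against Cd for each of the 27378 genes tested, by the mean level of the 6 libraries (TMM CPM, log axis). Red and blue points are the 1865 higher and 1557 lower genes with an unadjusted p below 0.05, grey points are all others, and the 4 named genes are circled.

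Among large differences, more genes were higher than lower under Cd + N. Over all genes tested, with no limit on p, 1830 were at least 2-fold higher and 1687 at least 2-fold lower. At 8-fold or more they were 305 and 170, so at 2-fold the surplus was small without the limit on p. Among the genes at an unadjusted p under 0.05, 1035 were at least 2-fold higher and 731 at least 2-fold lower, so that 58.6% of them were higher. At 4-fold or more there were 546 higher and 290 lower genes (65.3% higher), and at 8-fold or more there were 282 and 121 (70.0% higher). At 16-fold or more the counts were 127 and 54. A few of these genes had no count in any library of one group, and with their fold set to the lower bound that 3 counts over that group would give, the counts at 16-fold were 126 and 51. Differences under 2-fold were balanced, with 830 genes higher and 826 lower. With the additional limit of a mean of 1 CPM, 781 genes were at least 2-fold higher and 528 at least 2-fold lower, and 197 and 60 at least 8-fold. These counts are descriptions of genes that did not pass the adjusted threshold by edgeR.

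**Figure D2:**
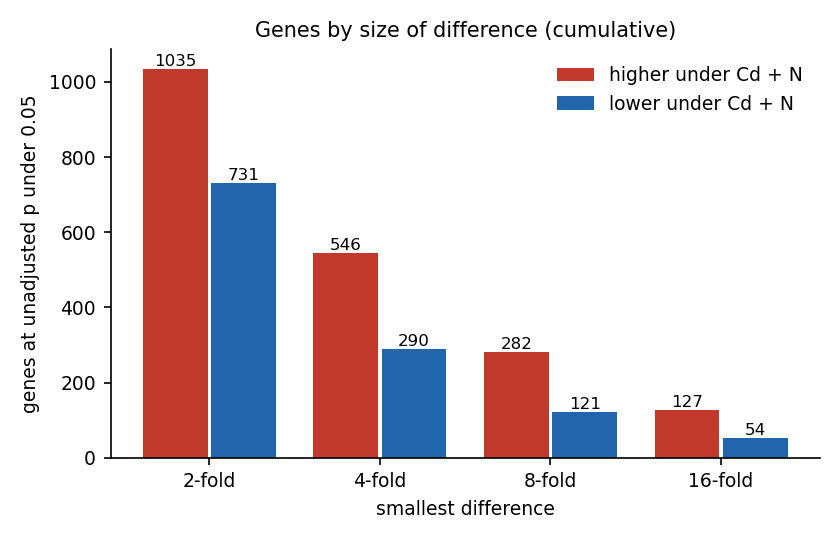
Number of genes at an unadjusted p under 0.05 (edgeR) whose levels differed between Cd + N and Cd by at least 2-, 4-, 8- or 16-fold, with each bar including the bars to its right. The higher genes outnumbered the lower ones at each limit, 1035 against 731 at 2-fold and 127 against 54 at 16-fold.

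The counts of higher and lower genes varied with abundance. With the genes in 5 classes of equal size by mean level, the most abundant class, over 44.2 CPM, had 391 genes higher and 207 lower at an unadjusted p under 0.05 (7.14% and 3.78%). In the middle class, between 7.23 and 19.0 CPM, the counts were 328 and 365. Genes at least 2-fold apart at the same unadjusted p made up 11.7% of the least abundant class, under 1.61 CPM, and 3.07% of the most abundant one, where 113 were higher and 55 lower. The median standard error of the log2 fold change was 0.634 in the least abundant class and 0.193 in the most abundant. Among the 100 most abundant genes, all with a mean of at least 743.7 CPM, 6 were higher and 1 was lower at an unadjusted p under 0.05. Each of these differed by at least 2-fold. Over all genes tested, 6.81% were higher and 5.69% lower at that limit. The log2 fold change of the 100 genes ran from -1.40 to 4.78, with a median of -0.08. By the gene length recovered from the FPKM values, the median log2 fold change of the 5 length classes lay between -0.05 and 0.02.

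The genes at least 2-fold higher took 3.64%, 5.83% and 4.00% of the counts in Cd + N replicates 1, 2 and 3. They took 0.996%, 1.49% and 0.970% in Cd replicates 1, 2 and 3, and from 1.08% to 2.27% in CK. The genes at least 2-fold lower took 0.720%, 0.397% and 0.610% in the Cd + N libraries, against 2.06%, 1.29% and 1.84% in the Cd libraries and from 0.897% to 2.15% in CK. Cd + N replicate 2 lay farthest from the Cd libraries in both sets. The sets were chosen by these same libraries, so the separation itself is no test. As RNA was taken from whole leaves, more RNA per cell and more cells of a type cannot be told apart for any gene.

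**Figure D3:**
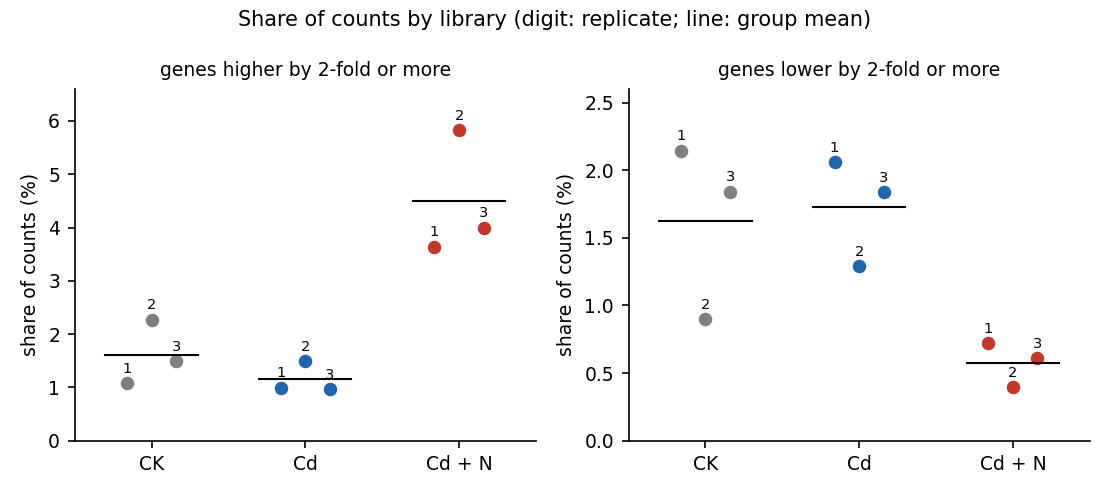
Share of the counts on tested genes (%) taken by the 1035 genes at least 2-fold higher and the 731 genes at least 2-fold lower in Cd + N, all with an unadjusted p below 0.05. Points are libraries with their replicate number and lines are group means; Cd + N replicate 2 is the highest point at 5.83% in the first panel and the lowest at 0.397% in the second.

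Cd + N replicate 2 was most often the library farthest from Cd. It was the highest of the 3 Cd + N libraries for 628 of the 1035 genes at least 2-fold higher (60.7%) and for 196 of the 282 genes at least 8-fold higher (69.5%), against 40.5% of all genes tested. It was the lowest of the 3 for 440 of the 731 genes at least 2-fold lower (60.2%) and for 64 of the 121 genes at least 8-fold lower (52.9%), against 42.6% of all genes tested. The median difference from the Cd mean for the genes at least 8-fold higher was 2.93, 4.40 and 3.40 on the log2 scale in Cd + N replicates 1, 2 and 3. For the genes at least 8-fold lower it was -2.35, -2.97 and -2.85, so that replicates 2 and 3 were close. These genes were chosen by the same libraries, so that the distance from Cd restates the choice. Over all genes tested, replicate 2 was often the highest or the lowest of the 3. Choosing genes by a high or low Cd + N level then favors it as the farthest library. The order of the 3 libraries is thus also set in part by the choice, and the shares over all genes are no neutral reference for it. Without Cd + N replicate 2, 1389 genes were higher and 1288 lower at an unadjusted p under 0.05, and 731 and 603 of them at least 2-fold, so the surplus of higher genes was smaller.

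Few genes were at 0 in every library of one treatment and well counted in the other. There were 37 genes with no count in the 3 Cd libraries and at least 30 counts in total under Cd + N. The opposite pattern was found for 14 genes, both out of the 34971 with a count in any library. Against 3 counts over the Cd libraries, the 37 genes had lower bounds from 9.34-fold to 66.0-fold, with a median of 16.5-fold. The limit of 30 counts set the lowest bound, so these folds restate how the genes were chosen. Cd + N replicate 2 was the highest library for 34 of the 37, and in 18 of them 1 library held over 80% of the counts. With Cd + N replicates 1 and 3 alone, 7 genes met the same limit of 30 counts. In 11 of the 14 genes at 0 under Cd + N, 1 Cd library held over 80% of the counts.

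Whether the genes chosen in some libraries differed the same way in others was read by leaving out 1 Cd and 1 Cd + N library, testing the remaining 7 libraries, and then comparing the left-out pair. Over the 9 such pairs, from 1629 to 4557 genes were at an unadjusted p under 0.05 in the remaining libraries. The share of them that differed in the same direction in the left-out pair ran from 49.2% to 90.7%, with a median of 69.1%. Among all genes tested, from 49.2% to 50.7% were higher in the left-out Cd + N library. The lowest share belonged to the pair of Cd replicate 1 and Cd + N replicate 2, in which the chosen genes lay in the direction they were chosen for no more often than all genes did. The highest belonged to Cd replicate 3 and Cd + N replicate 1. Genes chosen as higher kept a median difference between -0.03 and 1.09 on the log2 scale in the left-out pair, and genes chosen as lower between -0.65 and 0.01. Genes of a library vary together, so these shares describe 9 overlapping pairs of libraries and are not a test.

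**Figure D4:**
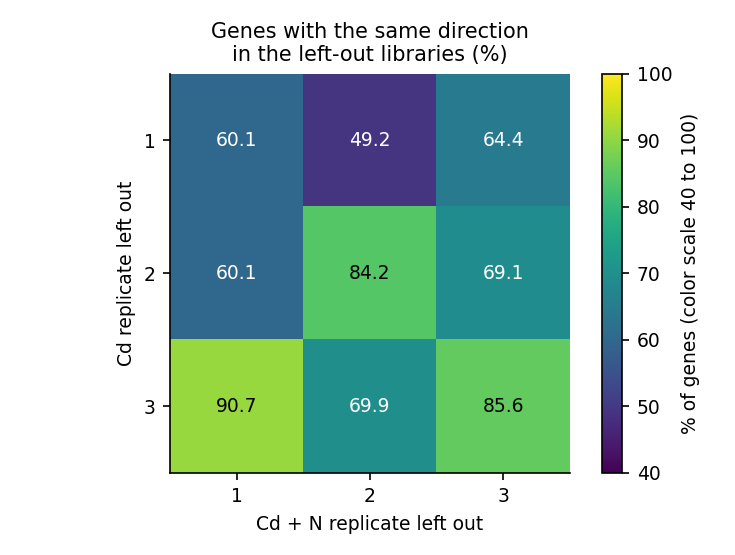
Share of genes (%) with the same direction in a left-out pair of libraries, for genes at an unadjusted p under 0.05 in the other 7 libraries, by the Cd replicate and the Cd + N replicate left out. The shares run from 49.2% for Cd replicate 1 with Cd + N replicate 2 to 90.7% for Cd replicate 3 with Cd + N replicate 1.

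As the identifiers are not paired with names, only 4 genes are described one by one, the 2 higher and the 2 lower with the smallest p among genes with a mean of at least 1 CPM and groups that did not overlap. The 15 such genes with the smallest p in the higher direction had adjusted p-values from 0.0928 to 0.0991 and log2 fold changes from 0.89 to 5.10. The 15 in the lower direction had adjusted p-values from 0.0928 to 0.114 and differences of 0.68 to 4.11 on the log2 scale. The adjustment gave one value to genes of different p. The adjusted p of 0.0928 was shared by unadjusted p-values from 3.47e-06 for Potri.014G143200.v3.0 to 3.39e-05 for Potri.017G082500.v3.0 (edgeR). In all, 31 genes had an adjusted p under 0.1 by edgeR. The 4 have the smallest p in their direction under the rule and are not typical of the genes tested.

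The gene with the smallest p of all was Potri.014G143200.v3.0. Its level was 18.6, 21.3 and 15.4 TMM CPM in Cd replicates 1, 2 and 3 and 194, 140 and 122 CPM in Cd + N replicates 1, 2 and 3. The lowest Cd + N library was 5.75 times the highest Cd library. In CK it was 37.7, 42.3 and 69.0 CPM, above every Cd library and below every Cd + N library. Cd + N exceeded Cd by 3.04 ± 0.287 on the log2 scale (± standard error), which is 8.25-fold (edgeR, adjusted p = 0.0928).

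Potri.010G146200.v3.0 was nearly silent under Cd. It had 3, 2 and 1 counts in Cd replicates 1, 2 and 3 and 56, 102 and 74 counts in Cd + N replicates 1, 2 and 3. In CK it had 12, 13 and 19 counts, so that the CK libraries again lay between the other groups. From the summed counts, 232 against 6, the level under Cd + N was 37.5 times that under Cd, with an exact 95% interval from 17.0 to 103 that covers counting error only. The fitted log2 fold change was 5.10 ± 0.543 (edgeR, adjusted p = 0.0928). It was a rare transcript also under Cd + N, with a mean of 2.11 CPM against 152 CPM for Potri.014G143200.v3.0. In FPKM it reached no more than 0.443, and Potri.014G143200.v3.0 reached 102. The lengths recovered from the FPKM values were 6213 and 1902 for these genes. Whether they are transcript lengths is not given, so the contrast per length is uncertain.

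Potri.006G055400.v3.0 was lower under Cd + N. Its level was 28.8, 32.6 and 23.9 CPM in Cd replicates 1, 2 and 3 and 10.1, 12.8 and 10.2 CPM in Cd + N replicates 1, 2 and 3. In CK it was 46.4, 35.9 and 39.3 CPM, so that CK was highest, Cd intermediate and Cd + N lowest, without overlap between any of the groups. The log2 fold change of Cd + N against Cd was -1.37 ± 0.169 (edgeR, adjusted p = 0.0928), and the lowest Cd library was 1.87 times the highest Cd + N library.

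Potri.002G234300.v3.0 was also lower under Cd + N, with a different order of the groups. Its level was 20.9, 24.7 and 21.8 CPM in Cd replicates 1, 2 and 3 and 6.70, 5.05 and 7.62 CPM in Cd + N replicates 1, 2 and 3. The CK libraries, at 7.82, 5.35 and 9.42 CPM, overlapped with Cd + N and lay below all Cd libraries. The log2 fold change of Cd + N against Cd was -1.80 ± 0.241 (edgeR, adjusted p = 0.0991). The p-values of the 4 genes come from the libraries by which they were chosen.

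With each of the 9 libraries left out in turn, the log2 fold change stayed between 2.82 and 3.17 for Potri.014G143200.v3.0 and between 4.74 and 5.62 for Potri.010G146200.v3.0. It stayed between -1.49 and -1.26 for Potri.006G055400.v3.0 and between -1.94 and -1.65 for Potri.002G234300.v3.0. The genes were chosen for groups without overlap, so that leaving out 1 library could not turn their direction, and these ranges describe the size only. The adjusted p by edgeR without 1 library ranged from 0.0323 to 0.358 over the 4 genes. It was under the threshold for all but Potri.006G055400.v3.0 without CK replicate 2, and for Potri.014G143200.v3.0 also without CK replicate 3, at 0.0447. DESeq2 put all 4 under the threshold, with adjusted p-values from 8.41e-20 to 1.05e-08. Limma on filtered log2(FPKM + 1) did so for the 3 genes it tested, with adjusted p-values of 0.0237 for Potri.014G143200.v3.0, 0.043 for Potri.006G055400.v3.0 and 0.0351 for Potri.002G234300.v3.0.

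**Figure D5:**
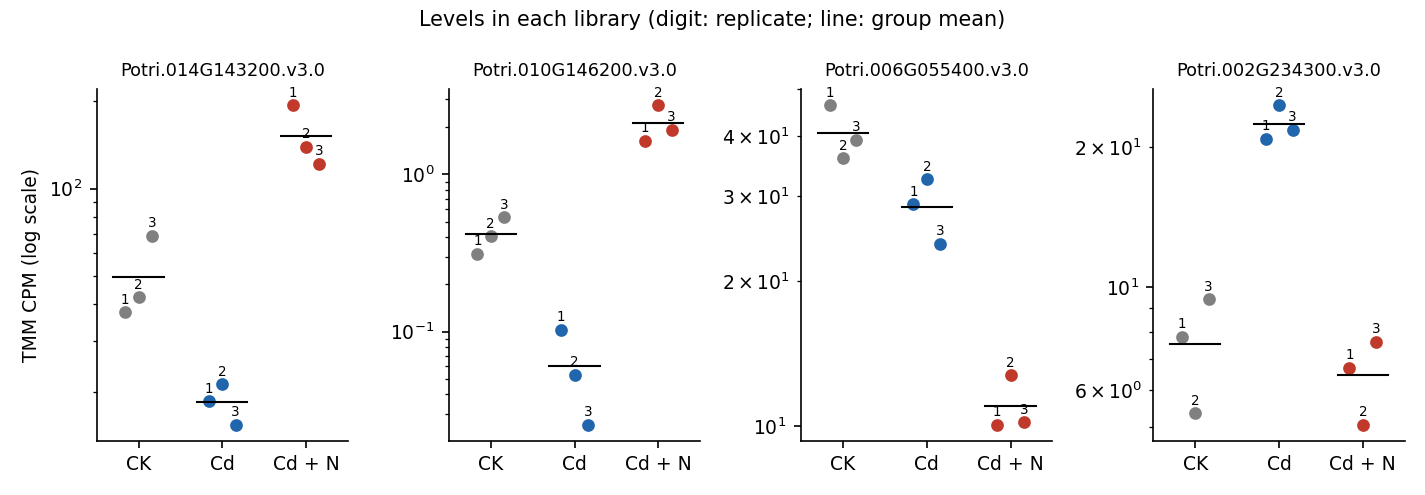
Level (TMM CPM, log axis) of the 4 described genes in each of the 3 CK, 3 Cd and 3 Cd + N libraries, with the replicate number beside each point and a line at the group mean. The Cd and Cd + N libraries do not overlap for any of the 4 genes, and the CK libraries overlap with Cd + N only for Potri.002G234300.v3.0.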

How the data were processed

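RNA sequencing of leaves gave 9 libraries, 3 each of CK, Cd and Cd + N, grouped by their titles. The authors deposited raw read counts per gene as whole numbers, and FPKM values. Bowtie2 2.0.6 and TopHat2 2.0.12 are named in the submitters' processing notes. The counting tool, genome build and use of strand are not given in the sources used here, so reads of paralogs or overlapping genes may be shared. The Potri identifiers are those of *Populus trichocarpa*, a species other than the one sampled. What this changes in the levels was not tested. Each FPKM value deposited by the authors was the count scaled to 1 length per gene and the library total, within 1e-06.

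Genes were kept by filterByExpr (minimum count 10, minimum total 15), which held over 99.9% of the counts in every library, and were scaled by TMM. The quasi-likelihood model of edgeR 4.0.16 (R 4.3.3) was fitted without a block, p-values were adjusted by Benjamini-Hochberg over all genes, and log2 CPM used a prior count of 2. Standard errors are the log2 fold change over the root of the test's F. DESeq2 1.42.0 and limma 3.58.1 were alternatives, and FPKM fits kept genes with at least 1 FPKM in 3 libraries. The scripts were tested on simulated counts. Plots were drawn with matplotlib 3.10.9.

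The genes to describe and all comparisons were chosen with earlier results of these data known. Gene lists by product name and tissue markers had been planned and were not run without an annotation, and the genes described were then those that the rule set for this case, the 2 higher and 2 lower genes with the smallest p among genes of at least 1 CPM and groups without overlap. The left-out pairs of libraries were added after seeing the data.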

Additional observations from a re-analysis of the deposited data

How the results depend on the processing

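For Cd + N against Cd, 0 genes were past the threshold by edgeR. This was also the count under upper-quartile factors, without the filter on low counts, when at least a 2-fold difference was asked for, by limma-voom, and by limma on log2(FPKM + 0.1) or on unfiltered log2(FPKM + 1). DESeq2 gave 1069 (684 higher, 385 lower), edgeR on the 6 libraries of Cd and Cd + N gave 2, and limma on filtered log2(FPKM + 1) gave 73 (64 higher, 9 lower). Leaving out 1 library gave between 0 and 22. The highest count came without CK replicate 2, and a count of 1 came when CK replicate 1, CK replicate 3 or Cd replicate 1 was the one left out. The replicate number as a block gave 313 (207 higher, 106 lower). Deviations from the group means correlated over 0.1 in 2 of 3 same-numbered pairs, at 0.14, 0.44 and 0.04 for replicates 1, 2 and 3. The 0.44 was the highest of all pairs, and differently numbered pairs reached 0.22. As 2 of 6 libraries correlated best with their own number, the numbers were not taken to pair the samples.

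The 3422 genes at an unadjusted p under 0.05 became 2252 without Cd replicate 3, of which 1907 were among the 3422, and up to 4300 without Cd replicate 1. The settings other than leaving out 1 library gave from 2782 to 4820. The 4 described genes kept their direction wherever they were tested, and with the replicate block their adjusted p-values by edgeR were 0.0211 for Potri.014G143200.v3.0, 0.028 for Potri.010G146200.v3.0 and 0.0294 for Potri.006G055400.v3.0 and Potri.002G234300.v3.0. The log2 fold change of Potri.010G146200.v3.0 was 0.41 on the log2(FPKM + 1) scale, where the added constant exceeds its level, and the FPKM filter removed it. The causes of the other changes were not tested. The alternatives on gene lists were not run. Depth was not varied, so what it limits was not tested.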
